A study of Homo sapiens with 20 samples.

Results

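Krüppel-like factor (KLF) genes encode transcription factors that bind GC-rich and CACCC-containing DNA through zinc fingers at their C-terminus. Transcript levels of 10 of them, KLF2, KLF3, KLF4, KLF5, KLF6, KLF9, KLF10, KLF11, KLF13 and KLF16, are described here in HCT-116 cells, a colorectal cancer line kept by a public cell repository. The 10 were chosen by symbol and with earlier results of these data known, and are 10 of 39918 gene rows in the deposited table. They are not the whole family, of which other members are counted further on. All 10 passed the filter on low counts, which left 18959 genes.

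The 20 libraries of ribosome-depleted total RNA fell into 5 groups of 4. The asynchronous cells were untreated. The G2 cells were kept in 2 mM thymidine for 16 h, which holds cells at the start of S phase, and then released from it for 7 h, without any drug after that. A further 3 h of treatment followed in the remaining groups, with 20 µM MG132, with 100 nM bortezomib, or with 20 µM MG132 together with 50 µg/ml α-amanitin. MG132 and bortezomib inhibit the proteasome, and α-amanitin inhibits RNA polymerase II. The G2 cells were collected at 0 h of treatment, and no group with 3 h of vehicle was analysed here. The difference between a drug group and G2 therefore also holds 3 h of time, and the drug and the time cannot be told apart. The labels do not say that the 4 replicates were separate cultures, so p-values measure the spread between these libraries, which may be technical.

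KLF proteins fall into classes that share partners outside the zinc fingers. KLF2, KLF4, KLF5 and KLF6 mainly activate transcription and recruit acetyltransferases. KLF3 represses through the corepressor CtBP. KLF9, KLF10, KLF11, KLF13 and KLF16 carry a Sin3-interacting stretch and mainly repress. In the intestine KLF5 is known from dividing crypt cells and KLF4 from cells that have left the cycle and differentiate. Several KLF proteins, KLF2, KLF4 and KLF5 among them, are ubiquitylated and degraded by the proteasome. The libraries measure RNA and not these proteins.

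Library totals ranged from 26797395 to 39710457 counts. The 10 genes held between 1584 counts (KLF9) and 40782 counts (KLF10) over all libraries, and the smallest single value was 28 counts, for KLF9 in MG132 replicate 4. Levels are given as CPM, a gene's counts relative to the library size after scaling by the trimmed mean of M-values (TMM). The scaling factors ran from 0.718 in asynchronous replicate 1 to 1.13 in G2 replicate 3, and a low factor raises the CPM of a library. The next lowest was 0.849, in G2 replicate 1. Differences were tested with edgeR's quasi-likelihood test and Benjamini-Hochberg adjustment over the 18959 genes, and a call means an adjusted p below 0.05. The 14 colorectal epithelial markers, of which 9 were tested, summed to between 3311 and 6108 CPM per library, led by KRT8, KRT18 and KRT19. CEACAM5, CEACAM6 and CDX1 were at or near 0, and LGALS4 and VIL1 averaged only 0.087 and 0.108 CPM over all libraries. None of these was among the 9 tested. Markers of other cell types summed to 3.23 to 13.0 CPM (10 fibroblast genes), 2.10 to 7.09 CPM (10 leukocyte genes) and 28.8 to 62.2 CPM (10 endothelial genes, of which EGFL7 gave most), while CDH5 and PTPRC were near 0. COL1A1, VWF and ESAM of these lists, and KRT20 of the epithelial list (3.20 against 0.902 CPM), were higher in G2 than in asynchronous cells, where no KLF gene was called. None of the markers was called in the drug comparisons.

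In 4 libraries the counts of all genes sloped with the GC content of the transcripts by more than 0.3 log2 units per 10 percentage points. MG132 replicate 4 had the steepest slope, 0.79, and MG132 replicate 2 the opposite one, -0.42. Asynchronous replicate 3 followed with 0.54, then replicate 2 of the G2 group with 0.39. This touches the KLF genes, whose transcripts range in GC content from 44.3% (KLF5) to 70.3% (KLF16). On the log2 scale, MG132 replicate 4 differed from the mean of the other MG132 libraries by -1.71 for KLF9, -1.65 for KLF3, -1.55 for KLF5 and 1.15 for KLF13. KLF10 and KLF11, also of low GC content, stood at -0.15 and 0.47 in that library and did not share this drop. In MG132 replicate 2 the values were -1.44 for KLF13, -1.04 for KLF16 and 0.79 for KLF9, the opposite direction, while KLF10 and KLF11, of low GC content, stood at -0.97 and -0.86 and did not follow that order. For KLF4 and KLF6 these differences lay between -0.10 and 0.37 in MG132 replicates 2 and 4. KLF2, with a GC content of 65.9%, stood at -0.49 in MG132 replicate 2 and at 0.48 in MG132 replicate 4. In asynchronous replicate 3 KLF4 stood at 0.36 and KLF6 at 0.32, and in G2 replicate 2 at -0.21 and -0.18. The part of GC content in the results below was not tested beyond the fits without these 4 libraries or with a GC and length offset, which are named where a call changes.

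**Figure D1:**
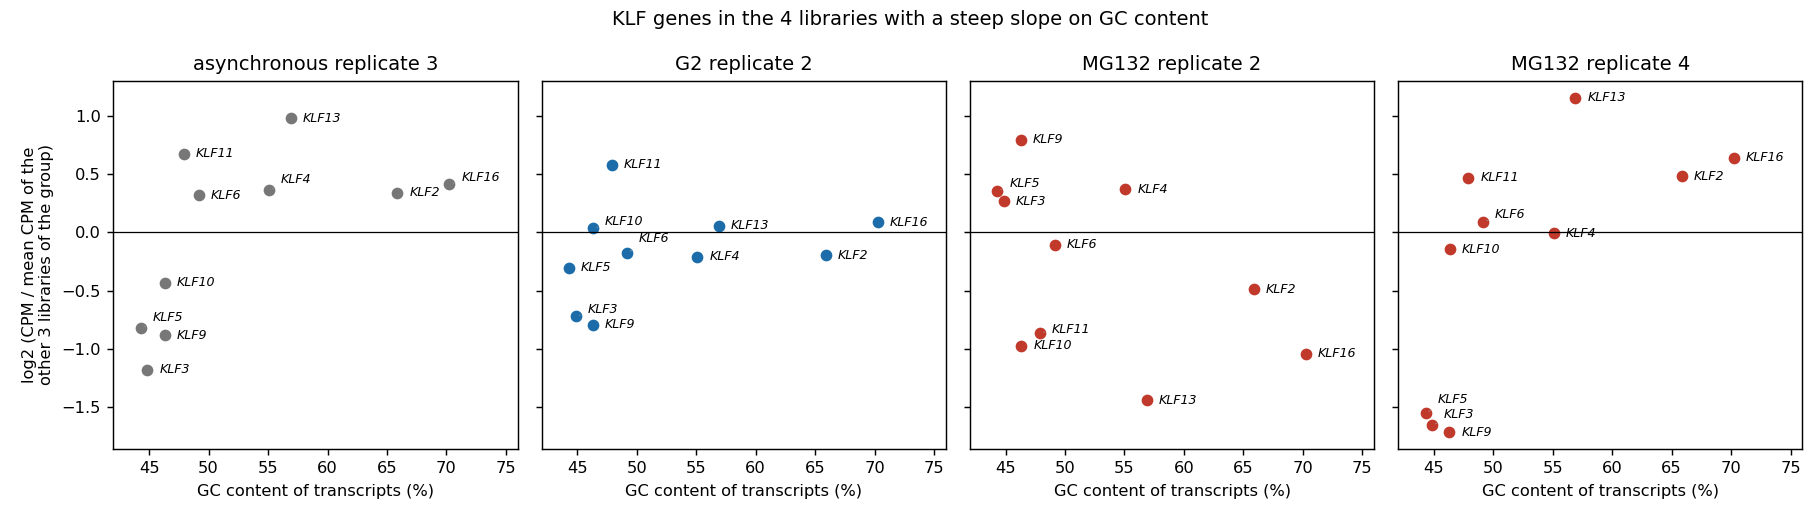
Each panel plots, for 1 of the 4 libraries with a steep slope on GC content, the log2 ratio of each KLF gene's CPM to the mean of the other 3 libraries of its group (y axis) against the GC content of its transcripts in percent (x axis). In MG132 replicate 4 the AT-richer KLF3, KLF5 and KLF9 lie between -1.71 and -1.55 while KLF13 lies at 1.15. KLF10 and KLF11, also of low GC content, lie at -0.15 and 0.47 in that library. In MG132 replicate 2 KLF13 lies at -1.44.

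The genes that were called are KLF2, KLF4 and KLF6, and the DNA before their start sites is shown because the levels of these RNAs are what the results turn on. The stretches come from RefSeq windows on GRCh38.p14, which reach from 250 bases before to 50 bases after a start site, and were cut to bases before the start and outside the gene's GENCODE release 29 exons. KLF2 is shown at chr19:16324576-16324816 on the plus strand, KLF4 at chr9:107489770-107490019 and KLF6 at chr10:3785282-3785459, both on the minus strand. The KLF4 stretch lies inside the GENCODE gene, between exons, because the RefSeq start lies within it. Capitals mark GC boxes (GGGCGG or CCGCCC), the letters CACCC or GGGTG, and the E-box CACGTG.
KLF2: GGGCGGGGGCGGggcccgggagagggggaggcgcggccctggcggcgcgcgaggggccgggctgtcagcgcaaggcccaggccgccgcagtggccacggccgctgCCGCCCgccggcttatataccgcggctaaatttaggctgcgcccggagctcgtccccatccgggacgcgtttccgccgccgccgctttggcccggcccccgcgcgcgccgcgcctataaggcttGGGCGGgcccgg
KLF4: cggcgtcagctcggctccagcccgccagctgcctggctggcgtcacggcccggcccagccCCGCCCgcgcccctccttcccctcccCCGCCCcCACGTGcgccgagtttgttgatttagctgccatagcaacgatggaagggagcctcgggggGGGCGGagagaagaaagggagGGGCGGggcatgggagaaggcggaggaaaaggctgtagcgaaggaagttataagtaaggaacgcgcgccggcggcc
KLF6: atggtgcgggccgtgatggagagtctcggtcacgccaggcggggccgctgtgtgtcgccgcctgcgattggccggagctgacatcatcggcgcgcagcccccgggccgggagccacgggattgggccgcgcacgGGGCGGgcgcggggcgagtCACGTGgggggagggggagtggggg
The KLF2 stretch (241 bases) holds 4 GC boxes and no E-box, and that of KLF4 (250 bases) holds 4 GC boxes and 1 E-box. The KLF6 stretch (178 bases) holds 1 of each. None of these stretches holds CACCC or GGGTG. The uncut windows of 300 bases hold 6 GC boxes for KLF2, 4 for KLF4 and 2 for KLF6. Of 35116 RefSeq windows of 300 bases, 45% hold a GC box, 7.26% hold CACGTG and 59.9% hold CACCC on either strand. A match describes these letters and is no evidence of binding, and no binding was measured. RefSeq windows were used for 8 of the 10 genes, since KLF3 had no entry and what was listed for KLF10 was left out as not usable.

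KLF2 transcripts fell under MG132 and stood lowest when α-amanitin was added. KLF2, a factor best known from quiescent endothelium and T cells (ENSG00000127528.6, chr19:16324817-16327874, plus strand), stood at 10.4, 5.24, 9.15 and 6.07 CPM in asynchronous replicates 1 to 4. The G2 libraries read 10.6, 7.80, 6.81 and 9.34 CPM. Under MG132 KLF2 read 2.86, 2.37, 3.19 and 3.92 CPM, and every MG132 library was below every G2 library. Bortezomib gave 4.97, 4.33, 4.66 and 7.55 CPM, between MG132 and G2, with replicate 4 inside the G2 range. MG132 with α-amanitin gave 2.31, 2.41, 2.41 and 3.10 CPM, which overlaps MG132 alone. In bulk RNA, fewer cells with the transcript and less transcript per cell cannot be told apart.

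Against G2 (8.64 ± 1.68 CPM, mean ± SD, n = 4), KLF2 was 2.79-fold lower with MG132 (3.09 ± 0.649 CPM, n = 4), a log2 fold change of -1.48 (SE 0.251, edgeR adjusted p = 0.00248). With α-amanitin added it was 3.37-fold lower than G2 (log2 -1.75, SE 0.253, edgeR adjusted p = 0.000403). The addition of α-amanitin to MG132 changed KLF2 by -0.27 (95% interval -0.80 to 0.25, edgeR adjusted p = 0.739), so an effect of α-amanitin on KLF2 beside MG132 was not shown. That interval bounds only a change relative to the other genes after TMM scaling. A loss shared by most transcripts would not show in it. Over the 21 alternatives this KLF2 value lay between -0.42 and -0.11, without a call. Bortezomib against G2 gave -0.68 (SE 0.245, edgeR adjusted p = 0.186) and did not pass. The direct comparison of MG132 with bortezomib gave -0.80 (SE 0.249, unadjusted p = 0.00448, edgeR adjusted p = 0.88), with no overlap between the libraries and no call. The 2 inhibitors were used at different doses.

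An undocumented letter in the sample codes was treated as a possible batch. The bortezomib libraries carry O, P, Q and W, of which the G2 and MG132 libraries share only O. Letter and drug can therefore largely not be told apart in comparisons with bortezomib. With the letter as a block, calls among all genes went from 218 to 30 in bortezomib against G2. In MG132 against bortezomib they went from 7 to 0. Within the letter O, KLF2 read 7.80, 6.81 and 9.34 CPM in G2 and 3.19 and 3.92 CPM with MG132. Within the letter L it read 10.6 CPM in G2 and 2.37 CPM with MG132. The call for MG132 against G2 was lost in 1 of 21 alternatives, the fit of these groups alone (log2 -1.41, edgeR adjusted p = 0.0521), and the call for MG132 with α-amanitin against G2 passed in 21 of 21.

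**Figure D2:**
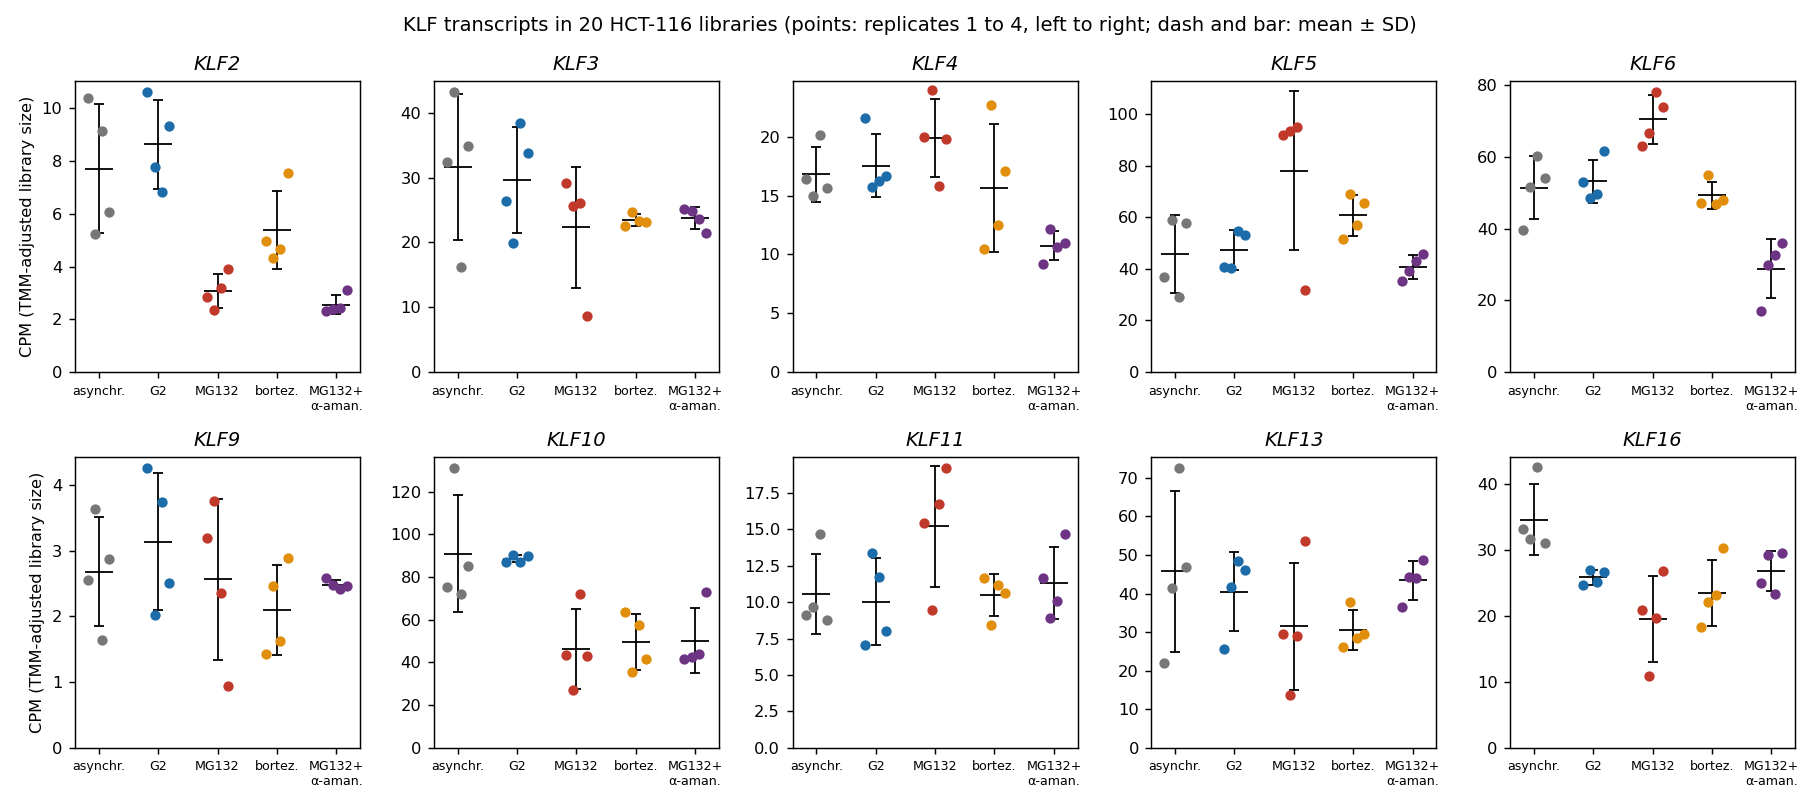
Each panel plots 1 KLF gene in CPM with TMM-adjusted library sizes (y axis, starting at 0) by group (x axis), with points for replicates 1 to 4 from left to right and a dash and bar for the mean ± SD. KLF2 lies between 2.31 and 3.92 CPM in the 8 libraries that received MG132 and between 6.81 and 10.6 CPM in G2, and KLF6 lies between 17.0 and 35.9 CPM with α-amanitin and between 63.1 and 78.1 CPM with MG132 alone.

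KLF6 transcripts were lower with α-amanitin beside MG132 than with MG132 alone. KLF6, an activator of the cell-cycle inhibitor gene CDKN1A (ENSG00000067082.15, chr10:3775996-3785281, minus strand), read 39.6, 51.7, 60.4 and 54.1 CPM in asynchronous cells. G2 cells gave 52.8, 48.4, 49.7 and 61.6 CPM. MG132 gave 63.1, 66.6, 78.1 and 73.9 CPM, each above the highest G2 library. Bortezomib gave 47.2, 54.9, 46.9 and 48.0 CPM, inside the span of the G2 and asynchronous libraries. MG132 with α-amanitin gave 17.0, 29.7, 32.5 and 35.9 CPM, below every library of the other groups.

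The KLF6 difference of MG132 with α-amanitin against MG132 was -1.29 (SE 0.203, edgeR adjusted p = 0.000791), a level 2.45-fold lower, from 70.4 ± 6.79 to 28.8 ± 8.27 CPM (SD, n = 4 each). Against G2 it was -0.88 (SE 0.201, edgeR adjusted p = 0.0157), 1.85-fold lower than 53.1 ± 5.95 CPM. MG132 alone against G2 gave 0.41 (95% interval -0.011 to 0.82, edgeR adjusted p = 0.443), which did not pass although the libraries did not overlap. MG132 against bortezomib gave 0.52 (95% interval 0.098 to 0.93, unadjusted p = 0.018, edgeR adjusted p = 0.983), again without overlap and without a call. Within the letter K KLF6 read 63.1 CPM with MG132 and 17.0 CPM with α-amanitin, and within L it read 66.6 and 29.7 CPM. Within O it read 78.1 and 73.9 CPM with MG132 and 35.9 CPM with α-amanitin. The call against MG132 passed in 21 of 21 alternatives, and the call against G2 in 17 of 21. The latter was lost with unadjusted library totals (adjusted p = 0.0645), with the code letter as a block (0.105) and without MG132 with α-amanitin replicate 1 (0.0596) or 2 (0.0514), all in edgeR.

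KLF4 followed KLF6 in direction with a weaker result. KLF4, a reprogramming factor that marks differentiated colon epithelium (ENSG00000136826.15, chr9:107484852-107490482, minus strand), read 16.4, 14.9, 20.2 and 15.6 CPM in asynchronous cells and 21.6, 15.7, 16.3 and 16.7 CPM in G2. MG132 gave 20.0, 24.0, 15.8 and 19.8 CPM, and bortezomib gave 10.5, 22.7, 12.5 and 17.1 CPM. These 4 groups overlapped. MG132 with α-amanitin gave 9.20, 12.2, 10.6 and 10.9 CPM, below all libraries of the asynchronous, G2 and MG132 groups but overlapping bortezomib.

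With α-amanitin KLF4 was 1.85-fold lower than with MG132 alone (log2 -0.89, SE 0.215, edgeR adjusted p = 0.0309), from 19.9 ± 3.33 to 10.7 ± 1.23 CPM (SD, n = 4 each). Within the letters K, L and O each α-amanitin library (9.20, 12.2 and 10.9 CPM) was below the MG132 libraries of its letter (20.0 CPM, 24.0 CPM, and 15.8 and 19.8 CPM). This call passed in 10 of 21 alternatives. It was lost with unadjusted library totals, mitochondrial mRNA scaling, the fit of these groups alone, the replicate block and the omission of the 4 GC-skewed libraries, and without MG132 replicate 1 or 2 or any single α-amanitin replicate, with edgeR adjusted p between 0.054 and 0.15 and log2 values between -1.04 and -0.71. Against G2 the difference of -0.71 (SE 0.215, edgeR adjusted p = 0.0803) did not pass, although the libraries did not overlap. It passed in 3 of 21 alternatives, with mitochondrial mRNA scaling (-1.13, adjusted p = 0.0368), in the fit of these groups alone (-0.72, 0.0214), both in edgeR, and in DESeq2 (-0.70, 0.0392).

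The KLF5 result changed with 1 library and with the method. KLF5, which drives proliferation at the crypt base (ENSG00000102554.14, chr13:73054976-73077542, plus strand), read 36.9, 59.1, 29 and 57.8 CPM in asynchronous cells and 40.8, 40.1, 54.8 and 53.2 CPM in G2. MG132 gave 91.8, 93.4, 95.0 and 31.9 CPM. The value of 31.9 CPM belongs to replicate 4, the library with the steepest slope on GC content, and KLF5 has the lowest GC content of the 10 genes. KLF10 and KLF11, also of low GC content, differed there from the other MG132 libraries by log2 values of -0.15 and 0.47. The part of GC content in the KLF5 value was not tested. Bortezomib gave 51.4, 69.0, 56.9 and 65.4 CPM, and MG132 with α-amanitin gave 35.2, 39.3, 42.9 and 45.8 CPM.

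With all 4 libraries KLF5 in MG132 against G2 was 0.72 (SE 0.284, edgeR adjusted p = 0.262) and was not called. Without MG132 replicate 4 it was 0.98 (edgeR adjusted p = 0.0144), without the 4 GC-skewed libraries 0.88 (0.0345) and with a GC and length offset 0.70 (0.0284). MG132 with α-amanitin against MG132 gave -0.94 (SE 0.285, edgeR adjusted p = 0.109). That difference was -1.2 without MG132 replicate 4 (edgeR adjusted p = 0.00363), -1.19 without the 4 GC-skewed libraries (0.00214), -0.91 with the offset (0.00471) and -0.97 in DESeq2 (adjusted p = 0.0261). Neither difference is counted as a call.

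KLF10 was lower in every drug-treated library than in every G2 library without passing the threshold. KLF10, a repressor induced early by TGF-β (ENSG00000155090.15, chr8:102648779-102655902, minus strand), read 75.5, 131, 72.2 and 85.2 CPM in asynchronous cells. The G2 libraries lay close together at 87.2, 90.3, 87.0 and 89.9 CPM. MG132 gave 43.7, 27, 71.9 and 42.9 CPM, bortezomib 63.5, 35.6, 57.5 and 41.8 CPM, and MG132 with α-amanitin 41.7, 42.4, 43.8 and 73.0 CPM. The fitted differences from G2 were -0.93 (SE 0.279, edgeR adjusted p = 0.0999), -0.84 (SE 0.279, 0.152) and -0.82 (SE 0.279, 0.131), in that order, and share the same 4 G2 libraries. Without MG132 replicate 3 the first was -1.23 (edgeR adjusted p = 0.0323), and in fits of only the groups compared bortezomib gave -0.90 (0.0399) and MG132 with α-amanitin -0.84 (0.0434). The addition of α-amanitin to MG132 gave 0.11 (95% interval -0.46 to 0.69).

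KLF11, the close paralogue of KLF10 (ENSG00000172059.11, chr2:10042849-10054836, plus strand), read 8.75 to 14.7 CPM in asynchronous and 7.05 to 13.4 CPM in G2 cells. MG132 gave 15.5, 9.45, 16.8 and 19.2 CPM, with replicate 2 inside the G2 range. Bortezomib gave 8.45 to 11.7 CPM and MG132 with α-amanitin 8.92 to 14.7 CPM. The difference of MG132 from G2 was 0.60 (SE 0.251, unadjusted p = 0.0272, edgeR adjusted p = 0.315). KLF11 shares 416 exon bases with the antisense gene AC104794.4, and without a stated strand setting the reads of the pair cannot be told apart. The same holds for KLF3 with KLF3-AS1 (266 exon bases) and KLF16 with AC012615.3 (483 exon bases).

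KLF9, KLF13 and KLF16, basic transcription element binding proteins that repress through Sin3, were called in no comparison. KLF16 (ENSG00000129911.9, chr19:1852399-1863568, minus strand) read 33.1, 31.6, 42.5 and 31.1 CPM in asynchronous cells and 24.6, 27, 25.1 and 26.6 CPM in G2. It was the only one of the 10 whose G2 and asynchronous libraries did not overlap, with a difference of -0.42 (SE 0.218, unadjusted p = 0.0684, edgeR adjusted p = 0.437). With MG132 it read 20.9, 10.9, 19.7 and 26.7 CPM. KLF13 (ENSG00000169926.11, chr15:31326855-31435665, plus strand) varied widely, from 21.9 to 72.5 CPM in asynchronous, 25.7 to 48.5 in G2, 13.8 to 53.6 with MG132, 26.1 to 37.8 with bortezomib and 36.5 to 48.8 with α-amanitin added. KLF9 (ENSG00000119138.4, chr9:70384597-70414624, minus strand) was the least abundant, from 0.946 CPM in MG132 replicate 4 to 4.26 CPM in G2 replicate 1.

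KLF3, the CtBP-binding repressor (ENSG00000109787.13, chr4:38664196-38701042, plus strand), read 32.4, 43.2, 16.3 and 34.9 CPM in asynchronous and 26.4, 20.0, 38.4 and 33.8 CPM in G2 cells. MG132 gave 29.2, 25.6, 26.1 and 8.58 CPM. Bortezomib gave 22.6 to 24.8 CPM and MG132 with α-amanitin 21.5 to 25.2 CPM, a narrow spread beside the other groups. The lowest values were in asynchronous replicate 3 and MG132 replicate 4, both among the GC-skewed libraries. Its difference from G2 was -0.41 with MG132 (95% interval -1.05 to 0.24), and no comparison called it.

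Across the 10 genes, the counts in each comparison were as follows. Between G2 and asynchronous cells edgeR called 0 of 10, as did DESeq2 and limma-voom, while edgeR called 2.09% of all tested genes. At an unadjusted p under 0.05 edgeR gave 0 of 10, beside 2487 of all 18959 genes. The median log2 fold change of the 10 was 0.0042, beside -0.042 over all tested genes. Libraries did not overlap for 1 of 10, beside 7.64% of all genes. In MG132 against G2, 1 of 10 was called, and it was lower, beside 2.08% of all genes in either direction and 1.08% lower. The median was -0.33 beside -0.031, and 3 of 10 did not overlap (KLF6 above, KLF2 and KLF10 below) beside 6.52%.

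In bortezomib against G2, edgeR called 0 of 10, as did DESeq2 and limma-voom, while edgeR called 1.15% of all genes. At an unadjusted p under 0.05 edgeR gave 2 of 10 (KLF2 and KLF10), beside 2753 of all 18959 genes. The median was -0.25 beside -0.015, and 1 of 10 did not overlap beside 15.2%. In MG132 against bortezomib, edgeR called 0 of 10, as did DESeq2 and limma-voom, while edgeR called 0.0369% of all genes. At an unadjusted p under 0.05 edgeR gave 3 of 10 (KLF2, KLF6 and KLF11), beside 768 of all 18959 genes. The median was 0.17 beside -0.014, and 2 of 10 did not overlap beside 3.16%.

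In MG132 with α-amanitin against MG132, 2 of 10 were called, both lower, beside 2.19% of all genes in either direction and 1.51% lower. The median was -0.16 beside 0.022, and 2 of 10 did not overlap beside 8.83%. Against G2, 2 of 10 were called, both lower, beside 3.35% of all genes in either direction and 2.32% lower. The median was -0.33 beside -0.0040, and 4 of 10 (KLF2, KLF4, KLF6 and KLF10) did not overlap beside 15%. The comparisons that share the G2 or the MG132 libraries are not independent of each other. Counts of 1 or 2 genes say little about the 10 as a group. The 10 were also chosen with earlier results of these data known. The shares of all genes beside them are therefore no test of the group.

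**Figure D3:**
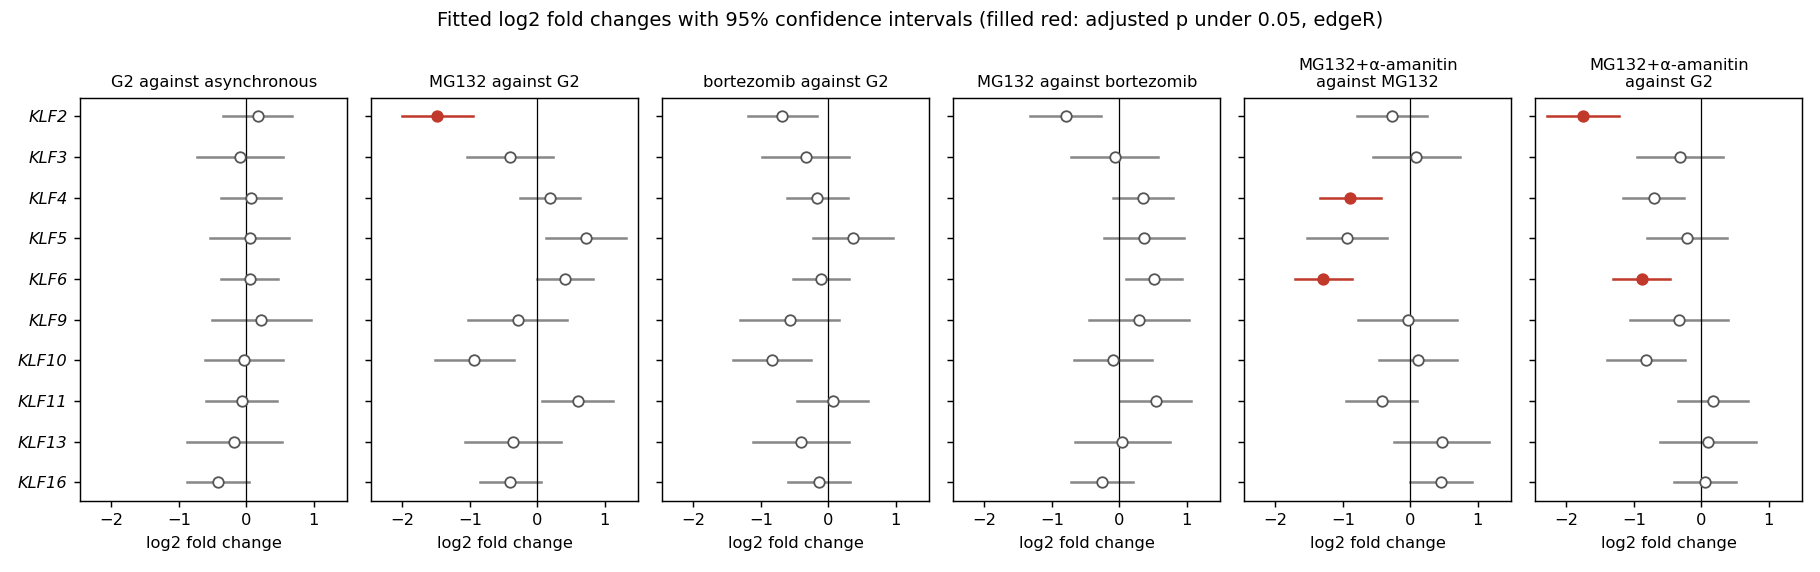
Each panel plots, for 1 comparison, the fitted log2 fold change (x axis) of the 10 KLF genes (y axis) with its 95% confidence interval, filled red where edgeR's adjusted p was under 0.05. KLF2 is red at -1.48 for MG132 and -1.75 for MG132 with α-amanitin against G2, KLF6 at -1.29 and -0.88 in the comparisons with α-amanitin, and KLF4 at -0.89 against MG132.

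Per kilobase of exon, KLF10 was the most abundant of the 10 in G2 at 22.1 ± 0.437 CPM per kb (SD, n = 4), followed by KLF5 at 12.1 ± 2.02. KLF16 and KLF6 followed at 8.74 ± 0.387 and 8.66 ± 0.970 CPM per kb, which their spread does not separate. KLF4, KLF3, KLF13 and KLF2 lay together between 4.28 and 4.80 CPM per kb. KLF11 stood at 2.19 and KLF9 at 0.606 CPM per kb. With MG132, KLF5 stood at 20.0 ± 7.90 and KLF10 at 11.6 ± 4.67 CPM per kb, the reverse of their order in G2 but with overlapping spreads.

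**Figure D4:**
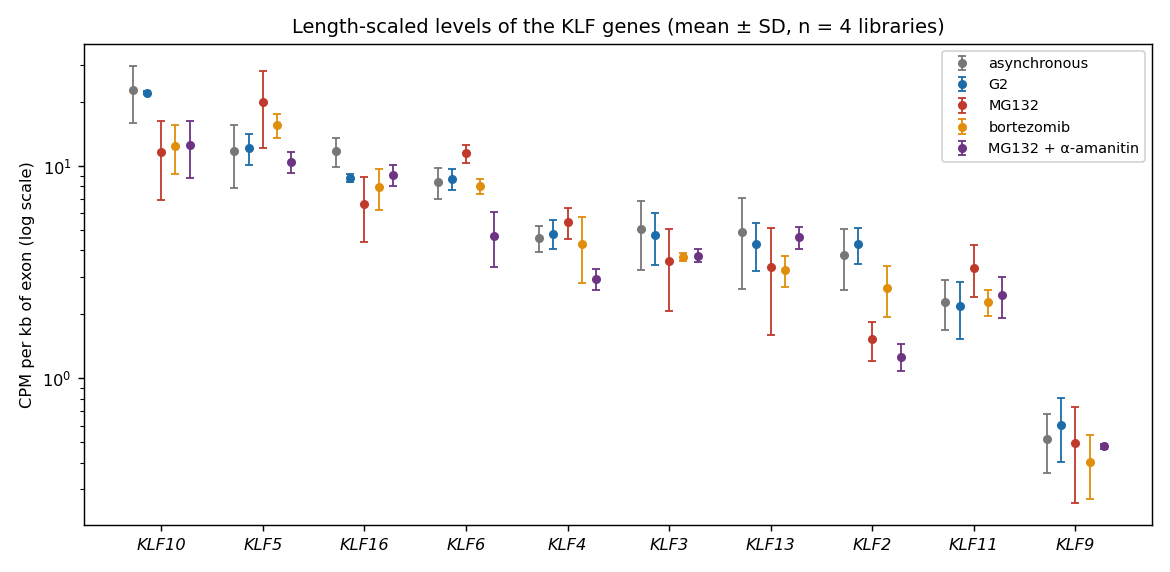
The length-scaled level (CPM per kb of exon, log axis) of each KLF gene is plotted as mean ± SD over the 4 libraries of each group, with genes ordered by their level in G2. KLF10 is highest in G2 at 22.1 CPM per kb and KLF9 lowest at 0.606 CPM per kb.

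Within single genes, the groups ordered by mean level overlapped with their neighbour in most cases. KLF2 ran from G2 through asynchronous, bortezomib and MG132 to MG132 with α-amanitin, and only bortezomib and MG132 were separate neighbours. KLF6 ran from MG132 through G2, asynchronous and bortezomib to MG132 with α-amanitin, and MG132 was separate from G2 and bortezomib from the α-amanitin group. For KLF10 the G2 libraries were separate from the next lower group, MG132 with α-amanitin. For KLF16 the asynchronous libraries were separate from the next lower group, MG132 with α-amanitin. All other neighbours overlapped.

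Over the 20 libraries, log2 CPM of KLF3 and KLF9 correlated with Pearson's r = 0.784, KLF4 and KLF6 with 0.754, KLF13 and KLF16 with 0.715, and KLF2 and KLF10 with 0.633. The lowest value was -0.640, for KLF5 and KLF16. These are descriptions over libraries that differ in group and GC slope. Protein-coding genes with a mean log2 CPM no lower than 3 were compared with each called gene (9673 for KLF2). The levels most like KLF2 were those of TGIF1 (0.919), MIDN (0.884) and HS3ST1 (0.882). For KLF6 they were RGS16 (0.878) and CWC25 (0.872), and for KLF4 CLDN4 (0.797), MYC (0.793) and DUSP5 (0.789).

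Of 16 other genes of the KLF and SP families 12 were tested, and 1 was called in 1 of 6 comparisons. KLF15, a factor of metabolic tissues, was lower with MG132 than in G2, at 0.351 ± 0.0596 against 0.836 ± 0.226 CPM (SD, n = 4; log2 -1.25, SE 0.298, edgeR adjusted p = 0.031). The level is low in both groups. In the other 5 comparisons edgeR called 0, with at most 3 at an unadjusted p under 0.05. DESeq2 called 1 in G2 against asynchronous cells and 2 in MG132 against G2, and limma-voom called 1 in MG132 against G2. SP9 gave -1.93 in the same comparison at 0.110 and 0.427 CPM (edgeR adjusted p = 0.0614), and KLF8 gave 1.36 in G2 against asynchronous cells (edgeR adjusted p = 0.0771). SP1 and SP3, ubiquitous activators at the same GC boxes, gave -0.27 and 0.34 in MG132 against G2 and did not pass.

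Cofactors of the KLF proteins, such as SIN3A, CTBP1 and EP300, were all tested (14 of 14). EdgeR called 0 in each of the 6 comparisons, as did DESeq2 and limma-voom, with at most 2 at an unadjusted p under 0.05. WDR5 gave -0.50 in G2 against asynchronous cells (edgeR adjusted p = 0.184). The upstream route from MAP2K5 and MAPK7 to the MEF2 factors, which drives KLF2, and the TGF-β receptors and SMADs, which drive KLF10 and KLF11, were tested in full (13 of 13). EdgeR, DESeq2 and limma-voom called 0 of them in each comparison, with at most 2 at an unadjusted p under 0.05 in edgeR. SMAD3 gave -0.45 in bortezomib against G2 (edgeR adjusted p = 0.247).

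Ubiquitin ligases and deubiquitinases that act on KLF proteins were tested in 15 of 16 cases, FBXW7, WWP1 and SMURF1 among them. TRIM21 was the only one called, higher in G2 than in asynchronous cells (log2 0.75, edgeR adjusted p = 0.0253), and lower than G2 with bortezomib (-0.91, 0.00925) and with MG132 and α-amanitin (-0.80, 0.0111). It stood at 17.5 CPM in G2, 11.3 CPM with MG132, 9.28 CPM with bortezomib and 10.0 CPM with α-amanitin added. SIAH1 gave -0.56 with α-amanitin beside MG132 (edgeR adjusted p = 0.094). In the other 3 comparisons edgeR called 0, with at most 2 at an unadjusted p under 0.05, where DESeq2 called 1 in MG132 against G2, 1 with α-amanitin against MG132 and 0 in MG132 against bortezomib, and limma-voom called 0.

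Of 20 genes reported as targets of KLF factors 16 were tested, and 3 were called in at least 1 comparison. CDKN1A, the p21 gene activated by KLF4 and KLF6, was higher than G2 with MG132 (log2 1.52, edgeR adjusted p = 0.00479) and with bortezomib (1.2, 0.0366), and lower with α-amanitin than with MG132 alone (-1.68, 0.00154). Its mean level was 120.9 CPM in G2, 346 CPM with MG132, 278 CPM with bortezomib and 108 CPM with α-amanitin added. CDKN1B, the p27 gene, was lower than G2 in all 3 drug groups, with log2 differences of -0.89 with MG132 (edgeR adjusted p = 0.00847), -0.91 with bortezomib (0.0103) and -1.21 with MG132 and α-amanitin (0.00049). SMAD7, an inhibitor of TGF-β signalling repressed by KLF10, was lower with α-amanitin than with MG132 alone (-1.14, edgeR adjusted p = 0.0452), and did not pass in limma-voom (-1.11, adjusted p = 0.0515). CCND1, ODC1 and PER1 were called in no comparison by edgeR. In G2 against asynchronous cells edgeR called 0 of the 16, with 3 at an unadjusted p under 0.05, 1 call in DESeq2 and 0 in limma-voom, and in MG132 against bortezomib all of these counts were 0. In MG132 against G2 the median log2 fold change was -0.25 over the 16 targets, -0.41 over the 12 other KLF and SP genes, -0.0022 over the 14 cofactors, 0.089 over the 15 ligases and deubiquitinases and -0.097 over the 13 upstream genes, beside -0.031 over all tested genes.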

How the data were processed

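Per the labels' protocols, total RNA of HCT-116 cells was ribosome-depleted and sequenced with a stranded kit. Raw counts per gene and repeat subfamily were deposited by the authors, 41092 rows in 20 columns, and 0 columns were unused. Per the submitters' processing notes the build was hg38 and the tools included STAR, cutadapt 1.18 and FastQC. Not given in the sources used here were the counter, annotation and strand setting. The members and lists were chosen with earlier results of these data known. In R 4.3.3, edgeR 4.0.16 was fitted to all 20 libraries (filterByExpr, TMM, robust quasi-likelihood, 1 mean per group, 15 residual degrees of freedom), and p-values were adjusted by Benjamini-Hochberg over 18959 genes. Positions are from GENCODE release 29 on hg38. The rule for named genes took all 10 members, up to 6 genes per list with the smallest p, and the 3 protein-coding genes most like each called member, and some of these genes are not reported here. SP1, SP3, CCND1, ODC1, PER1 and the markers were named outside it. That rule took promoters of genes called for MG132 against G2, and the KLF4 and KLF6 windows were added after their values were seen. Alternatives were RLE, unadjusted totals, mitochondrial mRNA scaling, no filter or a stricter one (CPM no lower than 1 in 4 samples), DESeq2 1.42.0 (p adjusted over the same genes), limma-voom (limma 3.58.1), only the groups compared, genes without repeats, blocks for replicate number and code letter, a GC and length offset, omission of 4 GC-skewed libraries and of each library. The fit was also run on simulated counts that held no GC slope and no batch, so that run says nothing on the GC-skewed libraries.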

Additional observations from a re-analysis of the deposited data

Results flagged for a closer look

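Of 50 combinations of gene and group, 6 held a library whose gap to the nearest other exceeded Dixon's 95% critical value, where chance alone gives about 1 in 20. KLF5 read 31.9 CPM in MG132 replicate 4 and 91.8 to 95.0 CPM in the others. KLF10 read 73.0 CPM in replicate 4 of MG132 with α-amanitin and 41.7 to 43.8 CPM in the others. KLF2 read 3.10 CPM in that same library and 2.31 to 2.41 CPM in the others. KLF11 read 14.7 CPM in asynchronous replicate 3 and 8.75 to 9.66 CPM in the others. KLF6 read 54.9 CPM in bortezomib replicate 2 and 46.9 to 48.0 CPM in the others. KLF4 read 21.6 CPM in G2 replicate 1 and 15.7 to 16.7 CPM in the others. The TMM scaling factor was 0.849 in G2 replicate 1 and 1.07, 1.13 and 1.12 in replicates 2 to 4. KLF4 held 587 of 32095045 counts in replicate 1. Replicates 2 to 4 held 604 of 35908799, 530 of 28807585 and 630 of 33759192 counts. Relative to these totals alone, replicate 1 lay inside the range of the others.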

How the results depend on the processing

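The 10 genes gave 1260 values over 21 alternatives per comparison, 13 settings and 8 fits that left out 1 library each. The sign changed in 63 of them, none called in either fit (smallest adjusted p 0.429, largest size 0.35 log2 units). Calls were lost in 16 and gained in 13, and these are given with KLF2, KLF4, KLF5, KLF6 and KLF10 in the report. The number of KLF genes called in MG132 against G2 was 1, and 0 in the fit of only the groups compared, 2 with the GC and length offset, 2 without the 4 GC-skewed libraries, and 1 to 2 when single libraries were left out. For bortezomib against G2 it was 0, and 1 in the fit of only the groups compared. For MG132 with α-amanitin against MG132 it was 2, and 1 with unadjusted totals, 1 with mitochondrial mRNA scaling, 1 in the fit of only the groups compared, 1 with the replicate block, 3 in DESeq2, 3 with the GC and length offset, and 1 to 3 when single libraries were left out. Without the 4 GC-skewed libraries it was 2, with KLF5 and KLF6 called and KLF4 not. Against G2 it was 2, and 1 with unadjusted totals, 1 with the code letter block, 3 with mitochondrial mRNA scaling, 3 in DESeq2, 4 in the fit of only the groups compared, and 1 to 2 when single libraries were left out. The causes of these changes were not tested. Replicate numbers shared by groups did not pair the libraries in all comparisons. Of 24 pairs with the same number 6 correlated by more than 0.1 (r from -0.610 to 0.615), and 5 libraries correlated best with their own number. For MG132 with α-amanitin and MG132, r was 0.526, 0.065, 0.030 and 0.501 in replicates 1 to 4. Replicates 1, 2 and 4 of these groups share their code letter (K, L and O), so a partial pairing is possible there. The replicate block ended the call of KLF4 against MG132 (adjusted p = 0.0604) and changed no other call of the 10 genes.

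Scaling moved the median of all genes by more than 0.1 log2 units as follows: unadjusted totals by 0.16 in G2 against asynchronous cells, -0.12 in MG132 against G2 and 0.17 in MG132 with α-amanitin against MG132, and mitochondrial mRNA scaling by -0.26 in MG132 against G2, -0.21 in bortezomib against G2, -0.15 in MG132 with α-amanitin against MG132 and -0.41 against G2. Under mitochondrial scaling KLF2 was -1.74 for MG132 and -2.15 for MG132 with α-amanitin against G2, and KLF6 was -1.43 against MG132 and -1.27 against G2, all called. Among all genes, MG132 against G2 had 191 higher and 204 lower calls, 198 and 132 with RLE, 144 and 333 with unadjusted totals and 76 and 132 with mitochondrial scaling. Bortezomib against G2 had 93 and 125, and 74 and 171 with unadjusted totals. MG132 with α-amanitin against MG132 had 129 and 286, 152 and 215 with unadjusted totals and 44 and 240 with mitochondrial scaling. Against G2 it had 197 and 439, and 84 and 899 with mitochondrial scaling. Over the 13 settings the calls among all genes ranged from 8 to 1148 in G2 against asynchronous cells (397 in the fit reported), 86 to 891 in MG132 against G2 (395), 30 to 621 in bortezomib against G2 (218), 0 to 19 in MG132 against bortezomib (7), 189 to 898 in MG132 with α-amanitin against MG132 (415) and 224 to 1007 against G2 (636). KLF9 held as few as 28 counts in a library.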
